A study of Homo sapiens with 12 samples.

Results

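TLL1, CD24, SLFN5, LASP1, USP54 and TRIQK are 6 genes whose transcripts were lower in full serum than in charcoal-stripped serum in LNCaP cells, a human prostate cancer line that responds to androgen. They were 6 of 11105 genes tested, and were selected on their measured fall in full serum in vehicle-treated cells, which was among the largest of the whole table. They share no family or pathway. The cells carried the control plasmid MSCV-LMP in every group and were profiled on Affymetrix Human Gene 2.0 ST arrays after 16 h of treatment. The 6 groups of 2 arrays were full serum with 1 nM cabazitaxel, charcoal dextran treated serum with 1 nM cabazitaxel, full serum with 1 nM docetaxel, charcoal serum with 1 nM docetaxel, full serum with vehicle (ethanol) and charcoal serum with vehicle. All groups come from a single cell line. Whether the pair of arrays of a group came from separate cultures is not stated in the labels, and the p-values therefore cover the spread between these arrays, which may be technical.

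Charcoal treatment removes steroid hormones and other small lipophilic molecules from serum, and is widely used to deprive prostate cancer cells of androgen. Ligand-bound androgen receptor activates many prostate genes and lowers the transcripts of others. Cabazitaxel and docetaxel are taxanes, which stabilise microtubules and arrest dividing cells. Cabazitaxel is a dimethoxy derivative of docetaxel, with methoxy in place of hydroxyl groups. TLL1 encodes a secreted metalloprotease of the tolloid family, which cuts procollagens and the BMP antagonist chordin. CD24 encodes a small, heavily glycosylated protein anchored in the outer cell membrane. SLFN5 belongs to the Schlafen genes, several of which respond to interferon. LASP1 encodes a LIM and SH3 domain protein that binds actin and sits at focal adhesions. USP54 encodes a member of the ubiquitin-specific protease family, and TRIQK a small protein of the endoplasmic reticulum membrane.

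Promoter sequence, taken from RefSeq on GRCh38.p14, was searched for 4 of the 6 genes. There was 1 window for TLL1 and LASP1, 3 for CD24 and 4 for USP54, and CD24 and USP54 have several start sites. No window was at hand for SLFN5, and TRIQK was left out of the search, which did not use its chromosome. The windows were searched over the 250 bases before each start on both strands for 6 motifs. Shown here, as the sequence next to the starts of the genes that differ, are the windows of the 2 genes with 1 start and, for CD24 and USP54, those with a match, with the matches in capitals and each sequence written 5′ to 3′ on the strand of its gene.
TLL1, chr4:165872987-165873236, plus strand: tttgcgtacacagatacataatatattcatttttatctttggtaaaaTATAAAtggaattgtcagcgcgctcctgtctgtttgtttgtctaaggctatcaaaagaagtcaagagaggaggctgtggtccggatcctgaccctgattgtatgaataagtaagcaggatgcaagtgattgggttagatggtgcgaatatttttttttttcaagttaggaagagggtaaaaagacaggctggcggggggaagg
LASP1, chr17:38869808-38870057, plus strand: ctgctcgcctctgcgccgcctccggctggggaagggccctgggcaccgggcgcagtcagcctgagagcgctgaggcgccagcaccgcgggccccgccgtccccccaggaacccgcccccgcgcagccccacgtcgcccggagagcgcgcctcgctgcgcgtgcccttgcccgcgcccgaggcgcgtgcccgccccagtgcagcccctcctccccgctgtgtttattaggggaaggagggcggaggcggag
CD24, chr6:106975466-106975715, minus strand: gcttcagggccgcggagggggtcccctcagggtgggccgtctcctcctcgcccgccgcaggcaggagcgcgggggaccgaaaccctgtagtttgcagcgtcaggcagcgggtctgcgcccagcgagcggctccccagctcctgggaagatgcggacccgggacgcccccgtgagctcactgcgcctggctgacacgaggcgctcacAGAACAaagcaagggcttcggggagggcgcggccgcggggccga
USP54, chr10:73625642-73625891, minus strand: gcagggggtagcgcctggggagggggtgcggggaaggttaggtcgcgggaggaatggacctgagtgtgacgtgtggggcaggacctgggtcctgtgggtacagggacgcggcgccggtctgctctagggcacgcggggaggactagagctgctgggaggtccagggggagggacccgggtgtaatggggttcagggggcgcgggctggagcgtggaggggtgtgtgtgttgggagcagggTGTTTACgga
USP54, chr10:73591343-73591592, minus strand: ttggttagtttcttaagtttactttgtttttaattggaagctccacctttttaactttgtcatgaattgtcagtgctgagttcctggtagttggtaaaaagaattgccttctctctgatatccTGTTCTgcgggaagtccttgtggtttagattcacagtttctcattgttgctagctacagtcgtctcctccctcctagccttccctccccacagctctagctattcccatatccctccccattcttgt
USP54, chr10:73553341-73553590, minus strand: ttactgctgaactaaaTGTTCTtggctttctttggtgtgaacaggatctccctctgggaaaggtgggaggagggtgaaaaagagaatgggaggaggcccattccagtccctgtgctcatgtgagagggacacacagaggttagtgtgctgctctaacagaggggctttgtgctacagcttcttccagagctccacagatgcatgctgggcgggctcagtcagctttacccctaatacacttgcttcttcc
The capitals mark TATAAA in TLL1, 203 bases before the start, the androgen receptor half-site AGAACA in CD24, 44 bases before it, the forkhead motif TGTTTAC in the most upstream window of USP54, 10 bases before its start, and the half-site read on the other strand, TGTTCT, in 2 further USP54 windows, 127 and 234 bases before theirs. The LASP1 window held no match and had the highest share of G and C of these windows, at 78.0%, against 40.4% in TLL1 and a median of 58.0% over the same 250 bases of all 34943 promoters. Searched in those 250 bases too, the half-site was found in 12.4% of all promoters, TATAAA in 10.8%, the forkhead motif in 2.98%, the interferon response core (GAAA, any 2 bases, GAAA) in 3.02%, the E-box CACGTG in 6.32% and the full androgen receptor site (AGAACA, any 3 bases, TGTTCT) in 0.00286%. The last 3 were in no window of the 4 genes. A half-site lies inside the full site, and such matches describe the letters only, with windows of 1 gene counted separately.

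Values are given as the log2 of the deposited array intensity, a scale on which a difference of 1 is a doubling and on which levels of different genes cannot be compared. All 6 genes lay above the median of all values (an intensity of 22.31) on each of the 12 arrays, so none entered the test only through the serum in which it was high. Array medians lay between 22.19 and 22.43, and the 2 arrays of each group had correlations of 0.9858 to 0.9922 over all transcript clusters. Of 13 listed prostate luminal markers, 6 were named on the array, and KLK2, KLK3, FOLH1, HOXB13, KRT8 and KRT18 were above that median on all 12. The basal keratin KRT5, the fibroblast genes DCN and LUM, the leukocyte genes LYZ and CD14 and neuroendocrine CHGB were above it on none. THY1, FBLN1, CD68, VWF, CHGA, SYP and INSM1, listed as markers of other cell types, were above it on all 12. The array mean of the 6 luminal markers, 2 of them androgen-induced kallikreins, ran from 7.99 to 8.16 in full serum and from 7.66 to 7.81 in charcoal serum, moving with the serum, and its part in the results was not tested. The mean of the 4 fibroblast markers ran from 4.41 to 4.53 in full serum and from 4.39 to 4.53 in charcoal serum, and the other lists overlapped between the sera likewise. As a check of the serum labels, 9 androgen-induced genes were kept. In the taxane arrays all 9 were called higher in full serum, against 0.621% of all genes tested. KLK2 had a log2 difference of 1.40 and TARP 1.99. The list was chosen with earlier results of these data known, so this count is no independent check of the labels.

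The choice of the genes rests on the full-serum and charcoal-serum vehicle arrays, which are given here as a description. In vehicle, limma called 19 genes lower in full serum, 0.171% of the genes tested, and in that order of called falls TLL1 was at place 2, CD24 at 5, SLFN5 at 6, LASP1 at 7, USP54 at 8 and TRIQK at 9. The log2 differences, full minus charcoal, were -0.89 for TLL1, -0.75 for CD24, -0.69 for SLFN5, -0.67 for LASP1, -0.62 for USP54 and -0.61 for TRIQK. CCL2 (-1.02), SESN3 (-0.81) and SESN1 (-0.75), a chemokine gene and 2 sestrin genes, fell within the same range or beyond it and were not among the 6. TP53INP1 (-0.60) was the last of the 10 largest called falls and NFKB1 (-0.59) the first beyond them, so no gap in the values marks the end of the list. Another 4 genes had a lower difference than TRIQK without being called. Tests of the serum difference were therefore run on the 8 taxane arrays, with the 4 vehicle arrays left out of the fit. Full and charcoal serum were compared there under each drug and as the mean of both drugs.

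All 6 genes were lower in full serum in the taxane arrays as well. As the mean of both drugs, limma called 6 of 6 lower, against 0.531% of all genes tested; 0.621% were called higher, 1.15% in either direction. The median log2 difference of the 6 was -0.53 against 0.00 for all genes. Every full-serum taxane array lay below every charcoal taxane array for each of the 6, a pattern found in 3.25% of the genes tested (17.6% within cabazitaxel and 18.7% within docetaxel, with 2 arrays against 2). In bulk RNA, fewer cells with a transcript and less of it in each cell cannot be told apart. Within a single drug, called members were 3 of 6 under cabazitaxel (TLL1, LASP1 and SLFN5; 0.09% of all genes were called lower) and 3 of 6 under docetaxel (TLL1, USP54 and LASP1; 0.108%). All 6 had an unadjusted p under 0.05 under either drug, as did 825 of the 11105 genes under cabazitaxel and 981 under docetaxel. The other 13 genes called lower in vehicle behaved alike, since 13 of 13 were below 0 in the taxane arrays and 9 were called lower, with a median of -0.49. The deposited values lie above a floor, and with an assumed offset of 16 subtracted 3 of the 6 were called in the mean of both drugs (TLL1, LASP1 and USP54). TRIQK was also not called with all 12 arrays in the fit, and neither TRIQK nor CD24 without the filter on low values.

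TLL1 had the deepest fall of the 6. It measured 6.39 and 6.15 in full serum with cabazitaxel and 7.03 and 7.20 in charcoal serum with cabazitaxel. With docetaxel it measured 6.29 and 6.24 in full serum and 7.30 and 7.46 in charcoal serum, and with vehicle 6.19 and 6.37 in full serum and 7.06 and 7.28 in charcoal serum. The 6 full-serum arrays all lay at or under 6.39 and the 6 charcoal arrays at or above 7.03, a gap of 0.63. Under the taxanes TLL1 was 1.97-fold lower in full serum, by a log2 difference of -0.98 (SE 0.0734, 95% confidence interval -1.14 to -0.81, limma adjusted p = 0.000378). That was the largest fall of the 11105 genes, as it was under docetaxel (-1.11, adjusted p = 0.00332), and under cabazitaxel it was at place 2 (-0.84, adjusted p = 0.017). The call in the mean of both drugs held without each of the 8 arrays in turn, with a log2 difference from -1.04 to -0.92. The single-drug calls were each lost without some of the 8 arrays (-0.96 to -0.72 under cabazitaxel, -1.19 to -1.03 under docetaxel). With an assumed offset of 16 subtracted both were lost (limma adjusted p = 0.125 for cabazitaxel and 0.0578 for docetaxel). The cabazitaxel call was also lost without the filter on low values (adjusted p = 0.0705).

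USP54 measured 7.34 and 7.47 in full serum with cabazitaxel, against 7.88 and 7.90 in charcoal serum with cabazitaxel. With docetaxel it measured 7.37 and 7.47 in full serum and 8.02 and 8.19 in charcoal serum, and with vehicle 7.23 and 7.36 in full serum and 7.88 and 7.95 in charcoal serum. The charcoal docetaxel arrays were the highest of the 12, and no full-serum array reached any charcoal array. The log2 difference in the mean of both taxanes was -0.58, or 1.5-fold lower in full serum (SE 0.0615, 95% confidence interval -0.72 to -0.45, limma adjusted p = 0.00228). It was called under docetaxel (-0.69, adjusted p = 0.0187) and not under cabazitaxel (-0.48, adjusted p = 0.0762). The cabazitaxel value passed with all 12 arrays in the fit (adjusted p = 0.0442) and with a replicate block (adjusted p = 0.0435). The 12 arrays include the vehicle arrays that chose the genes. The docetaxel call was lost without either charcoal docetaxel or either full-serum docetaxel replicate (log2 difference -0.77 to -0.61). It was also lost without the filter on low values (limma adjusted p = 0.0557) and with an assumed offset of 16 subtracted (adjusted p = 0.213). The difference between the cabazitaxel and docetaxel values is tested with the drug comparisons.

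LASP1 was the steadiest of the 6 in charcoal serum. Its full-serum values were 6.53 and 6.37 with cabazitaxel, 6.41 and 6.39 with docetaxel and 6.31 and 6.21 with vehicle. In charcoal serum it stood at 6.93 and 7.00 with cabazitaxel, 6.95 and 6.97 with docetaxel and 6.96 and 6.90 with vehicle, so that the 6 charcoal arrays spanned 0.09 and the 6 full-serum arrays 0.32. The taxane arrays gave a log2 difference of -0.54, or 1.45-fold lower in full serum (SE 0.0557, 95% confidence interval -0.66 to -0.41, limma adjusted p = 0.00222). Both single drugs passed, cabazitaxel with -0.52 (adjusted p = 0.0398) and docetaxel with -0.56 (adjusted p = 0.0256). The cabazitaxel call was lost in each of the 8 fits that left out 1 array (adjusted p from 0.0793 to 0.29), and that under docetaxel without either charcoal docetaxel or either full-serum docetaxel replicate (adjusted p from 0.119 to 0.243). With an intensity trend in the variance prior the cabazitaxel adjusted p was 0.0542.

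SLFN5 read 6.99 and 6.90 in full serum with cabazitaxel, and 7.46 and 7.39 in charcoal serum with cabazitaxel. With docetaxel the values were 7.08 and 7.04 in full serum and 7.53 and 7.44 in charcoal serum, and with vehicle 6.92 and 6.67 in full serum and 7.48 and 7.50 in charcoal serum. Replicate 2 of full-serum vehicle was the lowest of the 12 arrays, and the 2 sera were 0.31 apart at their closest. The mean of both taxanes gave a log2 difference of -0.45, or 1.37-fold lower in full serum (SE 0.0538, 95% confidence interval -0.57 to -0.33, limma adjusted p = 0.00418). SLFN5 was called under cabazitaxel (-0.48, adjusted p = 0.0465), narrowly, and not under docetaxel (-0.42, adjusted p = 0.078). The cabazitaxel call was lost in each of the 8 fits that left out 1 array and with all 12 arrays in the fit (adjusted p = 0.0501). USP54, LASP1 and SLFN5, like TLL1, were each called in the mean of both drugs without any 1 of the 8 arrays.

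CD24 had the widest replicate pair of the 6 genes, in full serum with cabazitaxel (SD 0.293, n = 2 arrays). Its other pairs had SDs from 0.00928 (full-serum vehicle) to 0.176 (charcoal vehicle). In full serum it measured 5.90 and 5.49 with cabazitaxel, 5.81 and 5.86 with docetaxel and 5.56 and 5.55 with vehicle. The charcoal values were 6.22 and 6.31 with cabazitaxel, 6.32 and 6.30 with docetaxel and 6.19 and 6.44 with vehicle. The pair of full-serum cabazitaxel arrays spanned the whole range of the 6 full-serum arrays, 0.41, but the sera did not overlap. The mean of both taxanes was -0.52, or 1.44-fold lower in full serum (SE 0.0854, 95% confidence interval -0.72 to -0.33, limma adjusted p = 0.0241). Neither drug alone passed, with -0.57 under cabazitaxel (adjusted p = 0.166) and -0.48 under docetaxel (adjusted p = 0.232). The cabazitaxel value was -0.36 without full-serum cabazitaxel replicate 2 and -0.78 without full-serum cabazitaxel replicate 1. The call in the mean of both drugs was lost without charcoal cabazitaxel replicate 2 (-0.50), charcoal docetaxel replicate 1 (-0.52) or 2 (-0.53), and full-serum docetaxel replicate 1 (-0.51) or 2 (-0.54), with adjusted p from 0.0729 to 0.128.

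TRIQK showed the smallest fall of the 6. It measured 6.99 and 6.88 in full serum with cabazitaxel and 7.24 and 7.36 in charcoal serum with cabazitaxel. With docetaxel it measured 6.91 and 7.02 in full serum and 7.25 and 7.37 in charcoal serum, and with vehicle 6.59 and 6.92 in full serum and 7.39 and 7.34 in charcoal serum. Full-serum vehicle replicate 1 was the lowest array, and the sera were 0.21 apart at their closest. The log2 difference in the taxane arrays was -0.35, or 1.28-fold lower in full serum (SE 0.0618, 95% confidence interval -0.49 to -0.21, limma adjusted p = 0.0329). Under single drugs it was -0.36 (adjusted p = 0.239) and -0.34 (adjusted p = 0.236), for cabazitaxel and docetaxel in that order. The call held in 1 of the 8 fits that left out 1 array, that without charcoal cabazitaxel replicate 1, and without each of the 7 others the value was -0.38 to -0.32 with adjusted p from 0.0603 to 0.158. A second transcript cluster named TRIQK, 17079114, measured 4.85 to 4.97 in full serum and 4.88 to 5.10 in charcoal serum, and the sera overlapped there (log2 difference -0.09, limma adjusted p = 0.716 when all clusters were tested).

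The plot of array values shows the split between the sera under each treatment.

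**Figure D1:**
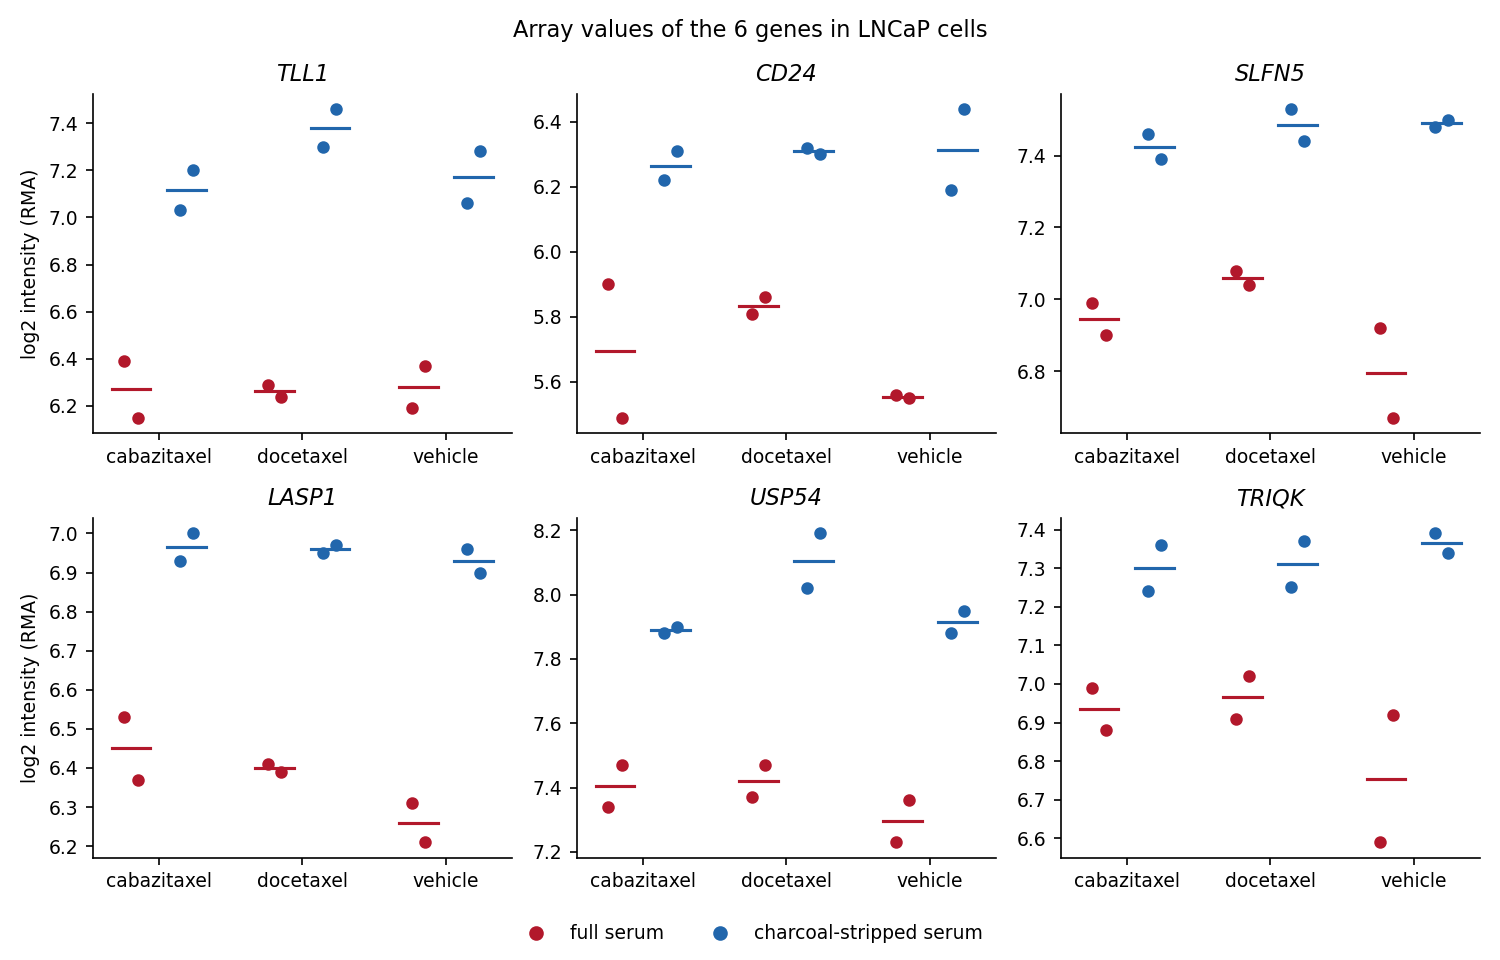
Log2 intensity (vertical axes, each panel with its own scale) of the 6 genes on the 12 arrays by treatment, with full serum in red left of charcoal-stripped serum in blue; points are arrays and bars the means of 2. In each panel every red point lies below every blue point, with the widest gap for TLL1 (0.63) and the narrowest for TRIQK (0.21).

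Set beside the differences in vehicle that chose the genes, the taxane differences were smaller for 5 of the 6. They were 57.8% of the vehicle difference for TRIQK, 65.0% for SLFN5, 69.5% for CD24, 80.4% for LASP1 and 94.7% for USP54, and 109.3% for TLL1. Because the vehicle differences are those the genes were picked from, the sets are given side by side without a test.

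**Figure D2:**
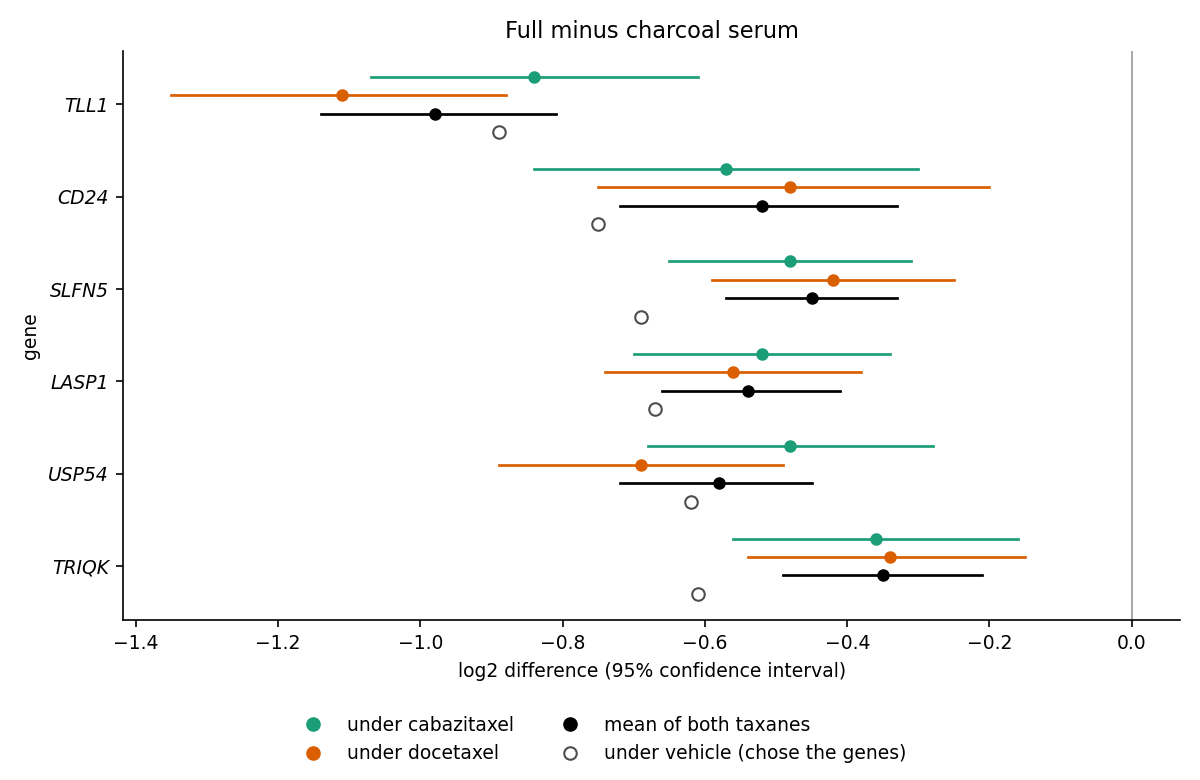
Log2 difference of full minus charcoal serum (horizontal axis) for each gene under cabazitaxel, docetaxel and the mean of both, with 95% confidence intervals of limma, and under vehicle as an open circle with no interval. All intervals lie below 0, from the mean of both drugs at -0.98 for TLL1 to -0.35 for TRIQK.

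The number of genes called under a single drug rested on single arrays. Under cabazitaxel 2 of the 6 were called without full-serum cabazitaxel replicate 1, 1 without charcoal cabazitaxel replicate 1 or either charcoal docetaxel replicate, and 0 without charcoal cabazitaxel replicate 2, full-serum cabazitaxel replicate 2 or either full-serum docetaxel replicate. Under docetaxel 1 was called without charcoal docetaxel replicate 1, and 0 without charcoal docetaxel replicate 2 or either full-serum docetaxel replicate. In the mean of both drugs 4 to 6 were called.

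No difference of the 6 genes between a taxane and vehicle passed the test. Each drug was compared with vehicle as the mean of both sera, since that mean weighs the full-serum and charcoal vehicle arrays equally and the choice of the genes rests on the difference between them. Both comparisons use the same 4 vehicle arrays. With cabazitaxel, limma called 0 of the 6 (0% of the 11105 genes, 520 with an unadjusted p under 0.05), and 5 of the 6 were above 0, against 51.1% of all genes. LASP1 was the highest, with a log2 difference of 0.11 (95% confidence interval -0.01 to 0.23), and TLL1 the lowest, at -0.03 (95% confidence interval -0.21 to 0.14). With docetaxel 0 of the 6 were called (0% of all genes, 672 with an unadjusted p under 0.05), and all 6 were above 0, against 55% of all genes. USP54 stood at 0.15 (95% confidence interval 0.02 to 0.29, unadjusted p = 0.0274, limma adjusted p = 0.795), SLFN5 and CD24 at 0.13 each, TLL1 at 0.10, LASP1 at 0.08 and TRIQK at 0.07. Over both drugs and all 6 genes the intervals reached no lower than -0.21 and no higher than 0.33.

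Within a single serum the vehicle arrays are those that chose the genes, and the drug differences there are a description. In full serum, 5 of the 6 had a higher mean with either drug than with vehicle, with the sixth, TLL1, at -0.01 for both drugs. The choice of the genes on the vehicle arrays favours this direction, and the share of all genes that rose there was not taken. The docetaxel differences were 0.27 for CD24 and SLFN5, 0.21 for TRIQK, 0.14 for LASP1 and 0.12 for USP54. In charcoal serum the cabazitaxel differences ran from -0.07 for TRIQK to 0.04 for LASP1, and with docetaxel TLL1 stood at 0.21, USP54 at 0.19 and the other 4 between -0.06 and 0.03.

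Cabazitaxel and docetaxel, given at the same dose and time, were compared directly on the 8 taxane arrays, for this single pair of compounds as the mean of both sera and within each. The comparisons called 0 of the 6 genes and 0% of all genes, with 567 genes at an unadjusted p under 0.05 in the mean of both sera, 370 in full serum and 694 in charcoal serum. Averaged over the sera, cabazitaxel minus docetaxel ranged from -0.13 for TLL1 (95% confidence interval -0.30 to 0.04) and -0.11 for USP54 (-0.25 to 0.03) to 0.03 for LASP1 (-0.10 to 0.15). In charcoal serum TLL1 averaged 7.11 ± 0.121 with cabazitaxel and 7.38 ± 0.116 with docetaxel (SD, n = 2 arrays each), a log2 difference of -0.27 (95% confidence interval -0.50 to -0.03, limma adjusted p = 0.788). USP54 averaged 7.89 ± 0.0178 with cabazitaxel and 8.11 ± 0.118 with docetaxel (SD, n = 2 arrays each), a difference of -0.22 (95% confidence interval -0.41 to -0.02, limma adjusted p = 0.788). The cabazitaxel and docetaxel arrays of these 2 genes did not overlap in charcoal serum, and neither gene passed. The share of all genes without overlap there was not taken. In full serum the same differences were 0.01 (95% confidence interval -0.23 to 0.24) and -0.01 (-0.20 to 0.19). The serum difference itself was 0.27 less deep under cabazitaxel than under docetaxel for TLL1 (95% confidence interval -0.06 to 0.60) and 0.21 for USP54 (-0.07 to 0.49), and limma called 0 of the 6 (0% of all genes, 453 with an unadjusted p under 0.05).

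**Figure D3:**
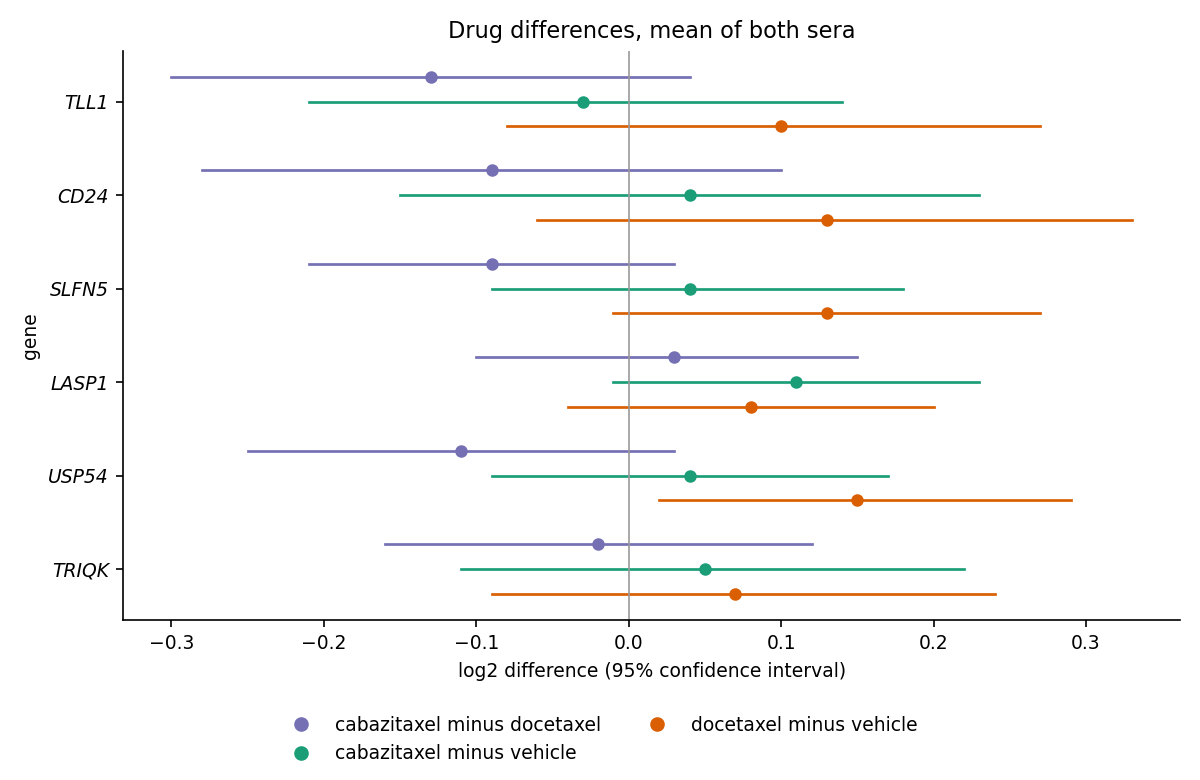
Log2 differences between treatments (horizontal axis), each the mean of both sera, for cabazitaxel minus docetaxel, cabazitaxel minus vehicle and docetaxel minus vehicle, with 95% confidence intervals of limma. All intervals but 1 include 0, the exception being USP54 with docetaxel (0.02 to 0.29), which did not pass adjustment over all genes.

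The 3 full-serum groups took the 3 lowest places in each gene, and the step in the means to the next group, always a charcoal one, was 0.83 for TLL1, 0.48 for LASP1, 0.47 for USP54, 0.43 for CD24, 0.36 for SLFN5 and 0.33 for TRIQK. Within each serum the order of the 3 treatments differed from gene to gene. Full-serum vehicle was the lowest group in 5 genes, a place that the choice of the genes on the vehicle arrays favours. In TLL1 full-serum docetaxel (6.27 ± 0.0314), cabazitaxel (6.27 ± 0.168) and vehicle (6.28 ± 0.131; SD, n = 2 arrays each) stood within 0.01 of each other. Among neighbours within a serum, the arrays did not overlap at 4 steps. These, with the difference of the means, were charcoal docetaxel above charcoal vehicle in TLL1 (0.21) and USP54 (0.19), full-serum docetaxel above full-serum cabazitaxel in SLFN5 (0.12) and full-serum docetaxel above full-serum vehicle in LASP1 (0.14). The other neighbours within a serum overlapped. Such steps set 2 arrays against 2, and the share of all genes without overlap at them was not taken. Between the sera, also 2 arrays against 2, every full-serum array lay below every charcoal array in 17.6% (cabazitaxel) and 18.7% (docetaxel) of genes tested.

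Across the 12 arrays the 15 pairs of genes correlated with r from 0.85 to 0.97, with a median of 0.91. These arrays fall into 2 clusters by serum, and the serum difference by which the genes were chosen is part of these correlations. With the mean of each serum removed, r ranged from -0.08 (TLL1 with SLFN5) to 0.65 (SLFN5 with LASP1), with a median of 0.39. CD24, SLFN5 and LASP1 had r of 0.60 to 0.65 with each other there, and TLL1 and USP54 had 0.58. The vehicle arrays that chose the genes are among the 12, so the choice can be part of the r with serum means removed too. The pairs share the arrays and their normalisation, and the values are a description of 12 arrays.

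Among 9974 other named genes, those most like each member over the 12 arrays were partly the other serum-lowered genes. SESN1 and SESN3 had Pearson r of 0.97 and 0.96 with USP54, SESN1 and CCL2 0.96 each with LASP1, and MMP16 and SESN3 0.95 and 0.94 with SLFN5. For CD24 they were MBNL2 and HACL1 (0.96 each), for TLL1 LRRN1 and TULP4 (0.97 each), and for TRIQK GRB10 (0.93) and ZNF704 (0.92). Being the highest of many, these r are high by choice. In the taxane arrays MMP16 had a log2 difference of -0.60 (limma adjusted p = 0.00169), TULP4 -0.57 (adjusted p = 0.00328), LRRN1 -0.49 (adjusted p = 0.0144) and HACL1 -0.35 (adjusted p = 0.0309). MBNL2 (-0.30, adjusted p = 0.0566), GRB10 (-0.34, adjusted p = 0.054) and ZNF704 (-0.13, adjusted p = 0.392) did not pass.

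The relatives and partners of the 6 genes were read from 7 lists. In the taxane arrays limma called 0 of them lower, and with 0.531% of all genes called lower, a count of 0 in lists of this size is near that background. Of 8 tolloid proteases and their substrates and partners tested, 5 were below 0 in full serum under the taxanes and limma called 0, with a median log2 difference of -0.0218 against 0.00288 for all genes. The lowest p was that of TWSG1, which encodes a BMP-binding protein, at -0.19 (adjusted p = 0.532), and LOXL1, a collagen cross-linking gene, stood at -0.08 (adjusted p = 0.847). Of 7 epithelial surface and adhesion genes 0 were called, with a median of -0.00805. The adhesion gene ALCAM had -0.22 (adjusted p = 0.35) and the tetraspanin gene CD9 0.09 (adjusted p = 0.719).

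All 6 other Schlafen genes listed were named on the array, and 1 of them, SLFNL1, passed the filter on low values, at 0.01 (adjusted p = 0.985). SLFNL1 was weak as well, with means of 4.59 in full and 4.58 in charcoal serum (n = 4 taxane arrays each). Of 15 interferon-induced genes (USP18, a ubiquitin-specific protease, is also in that list) 10 were below 0 and 0 were called (median -0.0301), with DTX3L, a ubiquitin ligase gene, at -0.20 (adjusted p = 0.37) and the RNA sensor gene RIGI at -0.27 (adjusted p = 0.396). Of 21 LIM and focal adhesion genes 14 were below 0 and 0 were called (median -0.024). LIMA1, which encodes an actin-bundling LIM protein, was at -0.21 (adjusted p = 0.27), and PDLIM5, another LIM gene, at 0.28 (adjusted p = 0.0844).

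Of 41 other ubiquitin-specific protease genes 20 were below 0 (median 0.00305). Limma called 1, USP43, and it rose, with 5.83 ± 0.0409 in full serum against 5.48 ± 0.141 in charcoal serum (SD, n = 4 taxane arrays each), a log2 difference of 0.35 (SE 0.0508, adjusted p = 0.0144). The deubiquitinase gene CYLD had -0.19 (adjusted p = 0.232). Of 22 genes of the endoplasmic reticulum membrane 4 were below 0 and 0 were called (median 0.055), with the translocon genes SEC61A1 at 0.13 (adjusted p = 0.421) and SEC61B at 0.16 (adjusted p = 0.436). In the vehicle arrays and in each comparison of a drug with vehicle or of the 2 drugs, limma called 0 genes of these 7 lists.

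**Figure D4:**
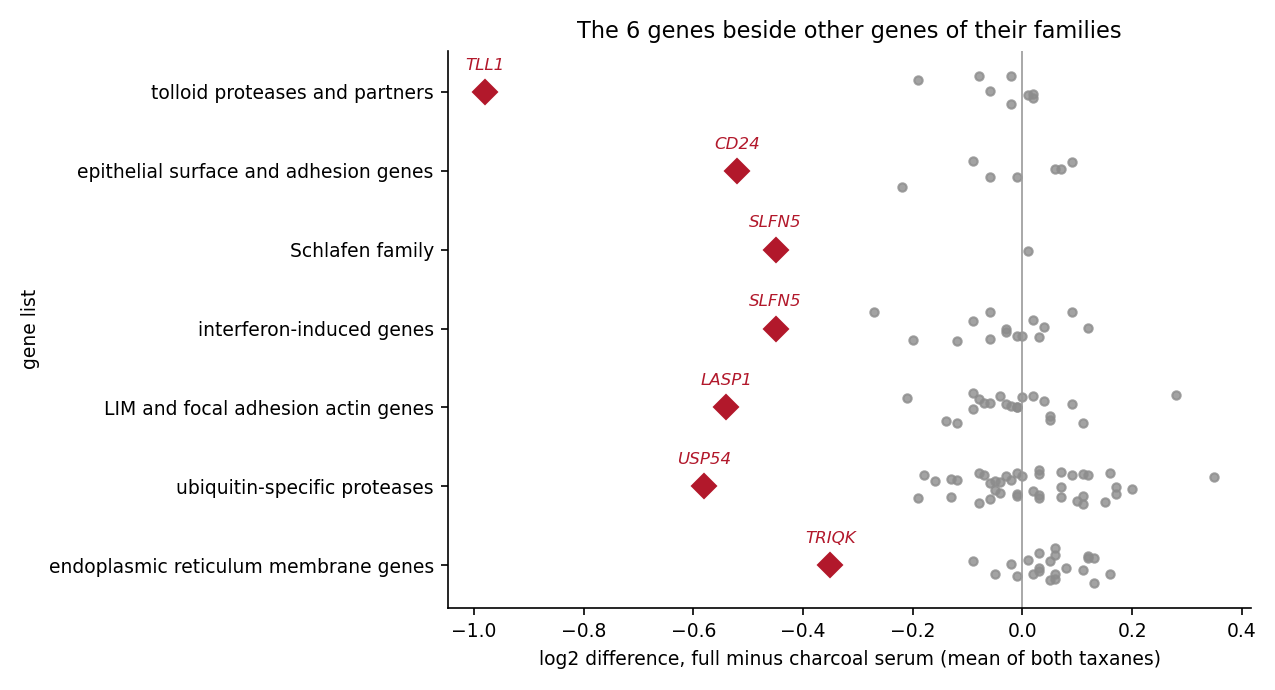
Log2 difference of full minus charcoal serum as the mean of both taxanes (horizontal axis) for the genes of 7 lists (grey points, spread vertically for legibility) and for the member of the 6 set beside each list (red diamonds). The 6 genes were chosen for falling in full serum, and the grey points lie between -0.27 and 0.35.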

How the data were processed

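Transcript levels in 12 arrays of LNCaP cells were analysed, from RNA extracted with Trizol and amplified with an Ovation Pico kit, per the labels' protocols. The authors deposited RMA-normalised intensity values (RMA is named in the submitters' processing notes, without a version), and, per the series' design text, filtered low-expressing genes, by a threshold not given in the sources used here. The values ran on a linear scale from 17.32 to 6307.3, so that changes of weak genes are compressed. Array data have no read depth; precision is limited by the number of arrays.

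The log2 of each value was taken. Of 44629 transcript clusters 15835 had 1 gene symbol in the platform annotation, and the other 28794 were not used. Each gene was represented by its cluster of highest mean, and a gene was tested if 2 or more arrays exceeded the overall median (11105 of 14812 genes). Limma 3.58.1 in R 4.3.3 was fitted with 1 mean per group, on the 8 taxane arrays for the serum and drug-to-drug comparisons (4 residual and 5.16 prior degrees of freedom) and on all 12 arrays for drug against vehicle (6 and 5.08). P-values are two-sided and Benjamini-Hochberg adjusted within a comparison over all genes tested, with a call at an adjusted p under 0.05. The fits on the taxane arrays were tried on simulated data with independent normal noise. This covered the serum comparisons under each drug and in their mean, and cabazitaxel against docetaxel as the mean of both sera. The other comparisons were not simulated.

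The 6 genes and the lists were chosen with earlier results of these data known. The residual spread of the taxane arrays had a part in the calls that chose the 6, so the taxane tests do not rest on wholly separate data. Besides the 6 genes, the text names by rule the 2 genes most correlated with each, small RNA and uncharacterised symbols left out, the neighbours of the 6 in the vehicle ranking, and from each list the called genes and the 2 with the smallest p in the mean of both taxanes. Alternatives covered the arrays in the fit, the filter, an assumed offset, the variance prior, the choice of cluster, quantile normalization, a replicate block, each array left out in turn and the methods' t-test.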

Additional observations from a re-analysis of the deposited data

How the results depend on the processing

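The serum difference of each of the 6 genes, under either taxane and in their mean, was below 0 in 270 of 270 alternative values. Every full-serum array lay below every charcoal array for each gene, so most of these alternatives could not change the sign. The count therefore adds little to that separation. In the mean of both taxanes, TLL1, LASP1 and USP54 were called under all 7 alternatives other than leaving out an array, SLFN5 under 6, CD24 under 5 and TRIQK under 4. Genes called were 31 under cabazitaxel, 27 under docetaxel and 128 in their mean. Without the filter on low values these became 8, 15 and 67 genes, with 0, 1 and 4 of the 6 members (CD24 with adjusted p = 0.0825 and TRIQK with 0.0646 in the mean); more genes are then tested. With an assumed offset of 16 subtracted before the log they became 9, 1 and 34 genes, with 0, 0 and 3 members (TLL1, LASP1 and USP54); the cause was not tested. There CD24 (-0.70, limma adjusted p = 0.104), SLFN5 (-0.51, adjusted p = 0.0768) and TRIQK (-0.40, adjusted p = 0.213) were not called. With an intensity trend in the variance prior, 1 member was called under cabazitaxel. With all 12 arrays in the fit TRIQK was not called in the mean of both taxanes (adjusted p = 0.0576). Leaving out each array in turn, which leaves a group with 1 array assumed to vary like the others, gave 5 to 22 genes and 0 to 2 members under cabazitaxel, 2 to 35 genes and 0 to 3 members under docetaxel, and 44 to 133 genes and 4 to 6 members in their mean.

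The replicate numbers are shared between groups, and deviations of same-numbered arrays correlated with r from -0.0486 to 0.326 over 15 pairs of groups (median 0.151, over 0.1 in 10). A part shared by number is possible, but not every pair passed 0.1 and no label ties the numbers to a culture or day, so the arrays were not treated as paired. A replicate block gave 44, 40 and 161 genes, and 4, 3 and 6 members.

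Limma called 0 genes in each comparison between treatments under all alternatives run. The methods' t-test, whose threshold is not given, had 450 (cabazitaxel) and 546 (docetaxel) genes at an unadjusted p under 0.05, 0 of them members, and 0 after adjustment. That test pooled the arrays of both sera, so the serum difference by which the members were chosen is part of its spread. For TLL1 the SD was 0.499 with cabazitaxel and 0.529 with vehicle (n = 4 arrays each). The test could therefore hardly call the members, and their count of 0 says little about the drugs. Differences near 0 changed sign. Under quantile normalization cabazitaxel minus docetaxel was 0.02 for TRIQK in the mean of both sera and 0.02 for USP54 in full serum. With single arrays left out, the mean of both sera ranged from -0.19 to 0.01 for CD24, -0.01 to 0.07 for LASP1 and -0.05 to 0.01 for TRIQK, and full serum from -0.11 to 0.12 for TLL1 and -0.07 to 0.06 for USP54. Cabazitaxel minus vehicle ranged from -0.09 to 0.03 for TLL1, -0.06 to 0.15 for CD24, -0.02 to 0.11 for SLFN5 and -0.03 to 0.14 for TRIQK, and docetaxel minus vehicle from -0.01 to 0.16 for TRIQK.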
